A study of Mus musculus with 24 samples.

Results

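Chemokines and their receptors were examined in mouse liver after activation of the beta3 adrenergic receptor, in mice with and without PPARα in hepatocytes. Members were taken by gene name from the array annotation: every Ccl, Cxcl, Ccr or Cxcr symbol followed by a number, and Cx3cl1 and Cx3cr1. This gave 52 genes measured by 73 probes, out of 37074 gene names and 56605 probes on the array. They comprise 35 ligands and 17 receptors.

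The series holds livers of 24 male C57Bl/6J mice, 6 in each of 4 groups, 1 array per mouse. LWT mice express PPARα in hepatocytes and LKO mice do not, a reading of the 2 labels that rests on the series title. The driver of the deletion and the age of the mice are not given in the sources used here. Every animal was gavaged at Zeitgeber time 10 h (ZT10, counted from lights on) and killed at ZT16. The treated groups, labelled LWT Beta3 and LKO Beta3, received CL316243, an agonist selective for the beta3 adrenergic receptor, at 3 mg/kg. The control groups, LWT Vehicle and LKO Vehicle, received the same carrier of 0.5% carboxymethyl cellulose without the agonist. All 4 groups ate a standard diet with free access.

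Chemokines are small secreted proteins that guide leukocytes along concentration gradients by binding G-protein-coupled receptors. The CXC ligands with an ELR motif, such as Cxcl1, attract neutrophils through Cxcr2, and some of them through Cxcr1. Cxcl9, Cxcl10 and Cxcl11 attract activated T cells through Cxcr3. CC ligands such as Ccl2 attract monocytes through Ccr2. Hepatocytes, Kupffer cells, sinusoidal endothelium and stellate cells all make chemokines, and in liver most of the receptors sit on leukocytes. PPARα is a fatty acid-activated nuclear receptor that drives fat oxidation genes and can dampen inflammatory transcription in hepatocytes. Beta3 receptors are found mainly on adipocytes, where their activation releases fatty acids.

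Signals are given as log2 of the processed intensity minus the array's own 75th percentile, so that 0 is the level of that percentile and each unit is a doubling. The 75th percentile lay between 397.4 and 577.7 intensity units over the 24 arrays, and 26985 to 34202 probes per array were well above background. No probe was saturated. The arrays lay on 3 slides of 8, each with 2 mice of every group. The Ppara probe averaged 5.68 ± 0.16 (SD, n = 6) in LWT Vehicle, 6.23 ± 0.27 in LWT Beta3, 5.01 ± 0.15 in LKO Vehicle and 4.32 ± 0.64 in LKO Beta3. It was lower in LKO than in LWT mice under both treatments but well above background, and whether it lies in the deleted part is not known here. The precision of every comparison is limited by 6 mice per group.

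Liver expressed a broad but uneven set of these genes. A gene counted as detected in a group when 4 or more of its 6 arrays had it well above background. By this measure 33 of the 52 members were detected somewhere and were tested, 22 of the 35 ligands and 11 of the 17 receptors. On all 24 arrays 22 members were well above background, on none 8 were, and 22 lay in between. The number detected was 30 in LWT Vehicle, 30 in LWT Beta3, 27 in LKO Vehicle and 30 in LKO Beta3. Among the neutrophil-attracting CXC ligands, Cxcl1 was well above background on every array. Cxcl3, Cxcl5 and Cxcl15 were not on any, and Cxcl2 was on 1 array of LKO Beta3. The interferon-inducible ligands Cxcl9, Cxcl10 and Cxcl11 were well above background on every array. The other members that were not tested were Ccl3, Ccl7, Ccl11, Ccl17, Ccl20, Ccl22, Ccl26, Ccl28, Cxcl17, Ccr1, Ccr3, Ccr4, Ccr10, Cxcr4 and Cxcr5.

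**Figure D1:**
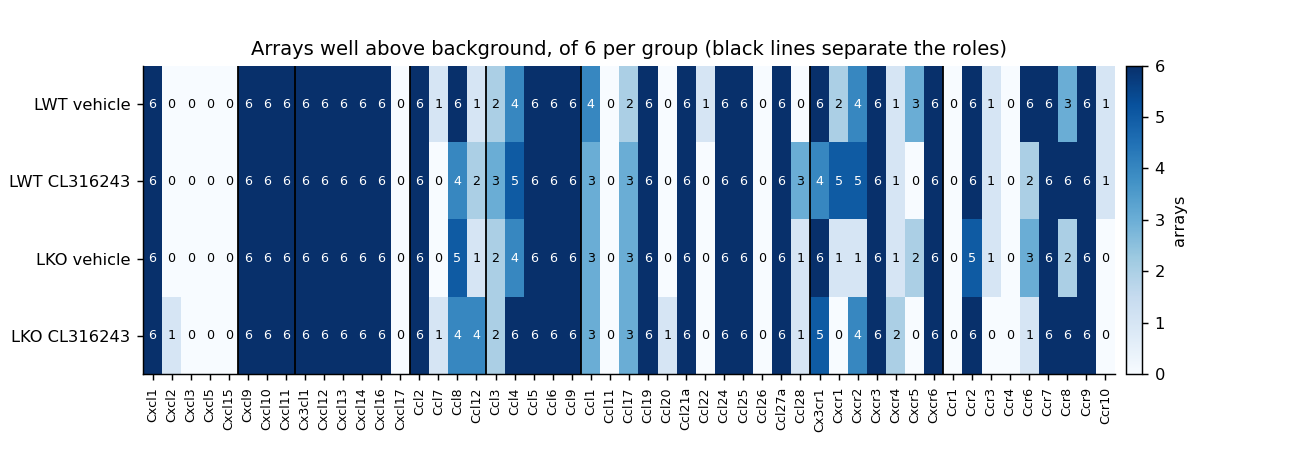
Number of arrays, of 6 per group, on which each of 51 chemokine system genes was well above background, by role from left (CXC ligands) to right (CC receptors). Cxcl1 and the interferon-inducible ligands are at 6 in every group, whereas Cxcl3, Cxcl5 and Cxcl15 are at 0.

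CL316243 changed some chemokine genes in both genotypes, in both directions. In LWT mice 9 of the 33 tested members passed an adjusted p of 0.05 (limma across 21331 genes, Benjamini-Hochberg), 5 higher and 4 lower. Over all genes tested 38.3% were called, 18.9% higher and 19.4% lower. In LKO mice 13 of 33 passed, 7 higher and 6 lower, beside 40.3% of all genes, 20.9% higher and 19.4% lower. Treated and vehicle mice did not overlap for 4 members in LWT and 6 in LKO, beside 20.4% and 20.8% of all genes. The members' median log2 change was 0.08 in LWT and 0.01 in LKO, beside 0.01 and 0.03 over all genes. The members' shares of calls were not above those of liver genes at large, and their medians lay near 0. Called in both genotypes were Ccl6, Ccr8 and Cxcl14, which rose, and Ccl9, Ccr6 and Cxcl12, which fell. The test of the difference between the effects in the 2 genotypes called 1 member, Ccr9, in the lower direction. It called 5.41% of all genes, 2.17% higher and 3.24% lower.

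**Figure D2:**
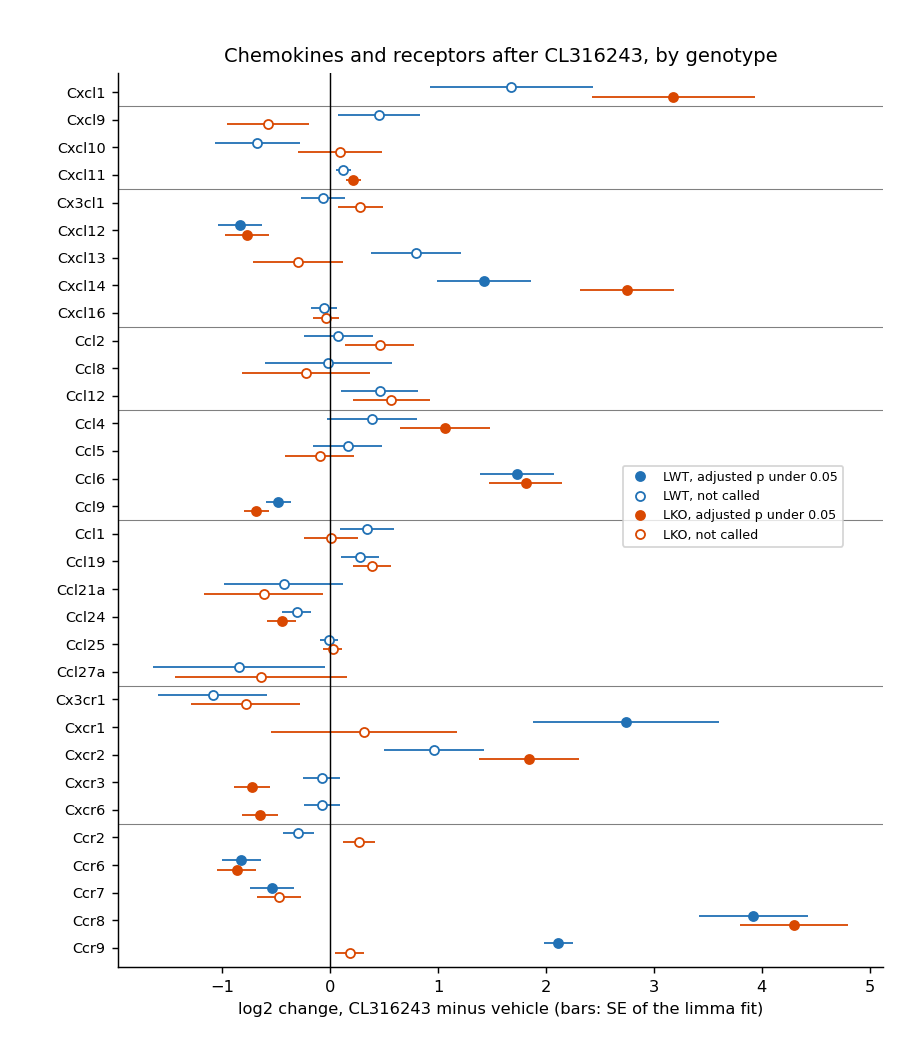
Log2 change from vehicle to CL316243 for 32 tested members in LWT (blue) and LKO (orange) mice, with the standard error of the limma fit; filled points passed an adjusted p of 0.05. With this processing Ccr8 shows the largest rise in both genotypes, and Ccr9 rose by 2.11 in LWT against 0.18 in LKO.

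Cxcl1, the neutrophil attractant, rose in LKO livers. Its signal in LKO Vehicle ran from 1.79 to 2.94 with a median of 2.25, and in LKO Beta3 from 4.20 to 6.67 with a median of 5.35, so the groups did not overlap. The log2 change was 3.18 ± 0.75 (SE, limma adjusted p = 0.00189), a 9.05-fold difference. In LWT mice the vehicle values ran from 1.91 to 4.27 (median 2.30) and the treated values from 1.017 to 6.78 (median 5.37). Of the 6 treated LWT mice, 4 lay above the vehicle mean and 2 below it, and all 6 vehicle values lay within the treated range. The LWT change was 1.68 ± 0.75 (limma adjusted p = 0.0847). It turned on the lowest treated mice: without LWT Beta3 replicate 4 the change was 2.38 (adjusted p = 0.00459), and without replicate 6, at 2.52, it was 2.08 (adjusted p = 0.0347). Replicates 4 and 6 are the 2 treated LWT mice of slide 1. Within slides 1, 2 and 3, with 2 mice per group, the LWT change was -1.39, 3.66 and 2.76. Over all 21331 genes, LWT treatment called 85, 4584 and 3487 within these slides. With the replicate number as a block, which does not pair the mice here, the limma adjusted p of the LWT Cxcl1 change was 0.036. The effects in LKO and LWT differed by 1.501, with a 95% interval from -0.71 to 3.71 (limma adjusted p = 0.504), so a difference between genotypes was not resolved. The probe lies at chr5:91322080-91322139 (mm9), within a cluster that also holds Cxcl2 and Cxcl3. These are close paralogs, so the family member a probe reports is uncertain.

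The promoters of these neighbouring genes are shown because all 3 carry the same run of letters while only Cxcl1 was detected on all arrays. RefSeq entries (GRCm38.p6) give the 250 bases before the start, on the strand of the gene. Capitals mark matches to an NF-kB-like motif, GGGANNTTC, on either strand; in each of the 3 genes a forward and a reverse match overlap.
Cxcl1, chr5:90890995-90891244, plus strand: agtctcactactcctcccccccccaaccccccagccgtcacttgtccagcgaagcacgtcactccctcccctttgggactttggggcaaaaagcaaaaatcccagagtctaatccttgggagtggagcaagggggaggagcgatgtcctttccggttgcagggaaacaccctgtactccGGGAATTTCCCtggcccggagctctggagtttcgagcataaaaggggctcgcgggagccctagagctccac
Cxcl2, chr5:90903649-90903898, plus strand: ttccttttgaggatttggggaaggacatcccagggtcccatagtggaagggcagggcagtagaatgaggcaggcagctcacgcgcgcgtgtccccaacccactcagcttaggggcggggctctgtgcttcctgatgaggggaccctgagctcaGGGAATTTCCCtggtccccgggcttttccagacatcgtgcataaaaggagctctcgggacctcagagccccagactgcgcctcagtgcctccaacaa
Cxcl3, chr5:90785851-90786100, plus strand: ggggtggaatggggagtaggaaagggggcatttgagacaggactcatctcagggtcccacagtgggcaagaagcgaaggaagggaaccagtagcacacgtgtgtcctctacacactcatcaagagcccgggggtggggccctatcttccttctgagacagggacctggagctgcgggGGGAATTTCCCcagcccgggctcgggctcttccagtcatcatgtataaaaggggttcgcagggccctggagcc
The first match begins 71 bases before the start in Cxcl1, 97 in Cxcl2 and 73 in Cxcl3. Of 32851 promoter entries of this length, 3.23% hold the motif. Promoter entries matched 37 of the 52 members, and 8 of the 37 hold it. A match describes letters in this window and is not a measured binding site.

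The ELR ligand receptors Cxcr1 and Cxcr2 were dim. Cxcr2, the shared receptor of the ELR ligands on neutrophils, rose in LKO mice from a median of -5.49 (range -6.03 to -4.90) to -3.88 (range -5.03 to -1.57). The change was 1.84 ± 0.46 (SE, limma adjusted p = 0.00303), with 1 of 6 vehicle and 4 of 6 treated arrays well above background. It was 0.63 after normexp correction and 0.90 with the authors' deposited table, both called. In LWT mice the Cxcr2 change was 0.96 (adjusted p = 0.108).

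Cxcr1, a neutrophil receptor for some ELR ligands, was called higher in LWT. Cxcr1 passed the detection filter only through LWT Beta3, the group then called higher, so filter and call rest on the same high values. With no filter on dim probes it was still called (limma adjusted p = 0.0285). In LWT Beta3 it ran from -3.80 to -1.74 (median -2.40), with 5 of 6 arrays well above background. In LWT Vehicle 4 mice lay between -7.00 and -6.52, and the others at -3.74 and -1.07, so the groups overlapped. The LWT change was 2.75 ± 0.86 (SE, limma adjusted p = 0.0147). It was 0.64 (adjusted p = 0.06) after normexp background correction and quantile normalization. In LKO Beta3 no array was well above background, with values from -6.83 to -5.17, and in LKO Vehicle replicate 2 alone was, at -2.74. The difference between the effects in LKO and LWT was -2.43, with a 95% interval from -4.96 to 0.09 (limma adjusted p = 0.298).

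Neutrophil markers were read beside these genes. Of 15 listed, 11 were tested. In LWT 3 were called higher and 2 lower, beside 38.3% of all genes (18.9% higher, 19.4% lower). In LKO 6 were called higher and none lower, beside 40.3% of all genes (20.9% higher, 19.4% lower). Retnlg, a neutrophil-secreted protein, rose by 2.06 in LWT and 3.48 in LKO, and S100a8, a calprotectin subunit abundant in neutrophils, by 1.48 and 2.30. Camp and Ly6g, a granule peptide and a neutrophil surface marker, fell in LWT by 0.41 and 0.38. The summed marker level, as the mean over the 11 genes, ran from -1.27 to -0.52 in LWT Vehicle, -1.17 to 0.19 in LWT Beta3, -1.44 to -0.90 in LKO Vehicle and -0.85 to 0.92 in LKO Beta3. The granule gene Ltf was well above background on no array. The part of neutrophil number in the Cxcr2 and Cxcl1 values was not tested. In whole liver, more or fewer cells of a type and more or less RNA per cell cannot be told apart, for this and every later result.

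**Figure D3:**
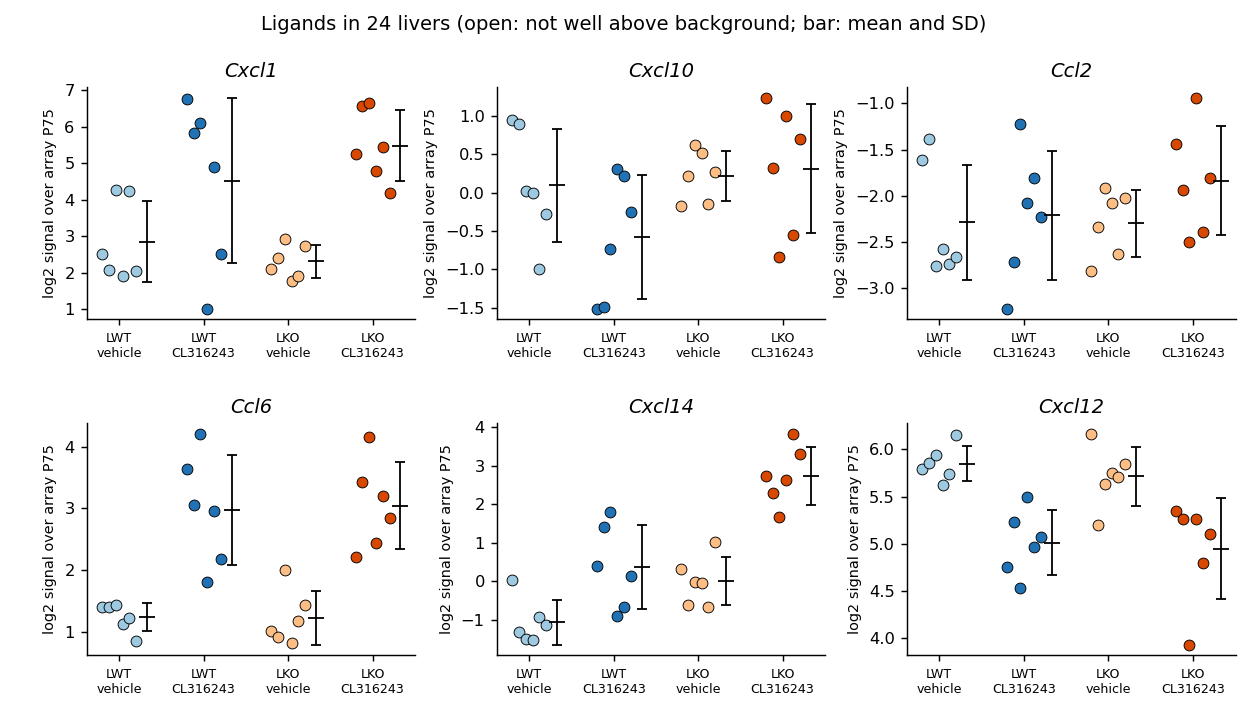
Signal of 6 ligands in each of the 24 livers, as log2 over the array's 75th percentile; points are mice, bars are mean and SD, n = 6 per group. Cxcl1 in LKO Beta3 lies between 4.20 and 6.67, above every LKO Vehicle mouse, whereas Cxcl10 and Ccl2 overlap in all groups.

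Of the interferon-inducible ligands, Cxcl9 and Cxcl10 were not called for treatment in either genotype. Cxcl10 ran from -0.996 to 0.94 in LWT Vehicle (median 0.01), -1.51 to 0.31 in LWT Beta3 (median -0.50), -0.17 to 0.62 in LKO Vehicle (median 0.24) and -0.84 to 1.23 in LKO Beta3 (median 0.51). The groups overlapped throughout. The change was -0.67 (95% interval -1.48 to 0.14, limma adjusted p = 0.185) in LWT and 0.09 (95% interval -0.72 to 0.90, adjusted p = 0.872) in LKO. Cxcl9 changed by 0.45 in LWT and -0.58 in LKO, neither called.

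Cxcl9 in LWT Beta3 was split between mice. Replicates 3 and 5 were at 2.26 and 2.01, and the other 4 between -0.28 and 0.35. The same replicates were the highest of that group for Ccl5, a T cell and NK cell product, at 1.74 and 1.86 against -0.11 to 0.42. These splits were picked out after the values were seen.

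Cxcl11 was called higher in LKO by 0.21 ± 0.07 (SE, limma adjusted p = 0.0152). The size is small, and it rested on the scaling (0.02, limma adjusted p = 0.728, after quantile normalization). In LWT this probe changed by 0.12. A second probe to the same transcript changed by 0.32 in LWT and 0.35 in LKO. C57BL/6 mice are known to carry a frameshift in Cxcl11, so the transcript does not give the usual protein.

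Other interferon-induced genes were read from a list. Of 18 listed and tested, 5 rose in LWT and 11 in LKO, with none lower in either, beside 18.9% and 20.9% of all genes called higher. Usp18, a brake on the interferon receptor, rose by 1.95 in LKO (limma adjusted p = 2.96e-06), and Rsad2, an antiviral enzyme, rose by 0.83 in LWT and 1.80 in LKO. The median change over this list was 0.15 in LWT and 0.61 in LKO, and the ligands were not tested against it.

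The Cxcl10 promoter is printed because it holds both an NF-kB-like and an interferon response (ISRE-like, GAAANNGAA) match and Cxcl10 was not called in any comparison. Capitals mark the ISRE-like match, which begins 213 bases before the start, and then the NF-kB-like match, 159 bases before it.
Cxcl10, chr5:92348890-92349139, minus strand: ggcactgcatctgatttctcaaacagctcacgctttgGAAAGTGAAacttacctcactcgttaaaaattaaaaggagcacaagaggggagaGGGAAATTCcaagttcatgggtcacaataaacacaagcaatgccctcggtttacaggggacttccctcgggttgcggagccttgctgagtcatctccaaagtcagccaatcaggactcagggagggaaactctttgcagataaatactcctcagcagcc
The ISRE-like motif occurs in 7.13% of all promoter entries and in 8 of the 37 matched members.

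Among the other CXC ligands, Cxcl14 and Cxcl12 moved in opposite directions. Cxcl14, a constitutive epithelial chemokine, rose in both genotypes. It ran from -1.53 to 0.03 in LWT Vehicle (median -1.23), -0.91 to 1.81 in LWT Beta3 (median 0.26), -0.67 to 1.01 in LKO Vehicle (median -0.03) and 1.68 to 3.83 in LKO Beta3 (median 2.69). Every treated LKO mouse lay above every vehicle LKO mouse, while the LWT groups overlapped. The change was 1.43 ± 0.43 (SE, limma adjusted p = 0.0122) in LWT and 2.75 ± 0.43 (adjusted p = 3.77e-05) in LKO. The difference between these effects was 1.32, with a 95% interval from 0.05 to 2.60 before correction and an adjusted p of 0.252 (limma), so it did not pass.

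Cxcl12, the stromal ligand of Cxcr4 that retains haematopoietic cells, fell. In LWT mice it went from a range of 5.62 to 6.15 to one of 4.53 to 5.50 with no overlap, and in LKO mice from 5.20 to 6.16 to 3.93 to 5.34 with overlap. The change was -0.84 ± 0.20 (SE, limma adjusted p = 0.00232) in LWT and -0.77 ± 0.20 (adjusted p = 0.00447) in LKO. A second probe, placed on another transcript of the gene, changed by -0.82 and -0.85. Cxcl13, which guides B cells, Cxcl16, a membrane-bound ligand of Cxcr6, and the fractalkine gene Cx3cl1 were not called in any comparison, with treatment changes between -0.29 and 0.80.

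The monocyte attractants gave no call. Ccl2 ran from -2.76 to -1.38 in LWT Vehicle (median -2.61), -3.22 to -1.22 in LWT Beta3 (median -2.15), -2.81 to -1.91 in LKO Vehicle (median -2.21) and -2.50 to -0.94 in LKO Beta3 (median -1.87). The groups overlapped throughout. The change was 0.08 (95% interval -0.59 to 0.74, limma adjusted p = 0.88) in LWT and 0.46 (95% interval -0.20 to 1.12, adjusted p = 0.265) in LKO. Ccl8 and Ccl12 changed by -0.22 to 0.57, none called. Of 11 tested monocyte markers, 4 rose in each genotype and none fell. Over all genes, 18.9% were called higher in LWT and 20.9% in LKO, of 38.3% and 40.3% called in either direction. Nr4a1, an immediate-early nuclear receptor also induced in many other cells, rose by 0.99 and 2.57, and Plac8 by 0.71 and 1.06. Of 12 tested Kupffer cell markers 1 was called in LWT and none in LKO.

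Ccl6 and Ccl9, macrophage ligands of Ccr1 encoded next to each other, changed in opposite directions. Ccl6 ran from 0.86 to 1.44 in LWT Vehicle (median 1.32), 1.82 to 4.20 in LWT Beta3 (median 3.01), 0.83 to 2.002 in LKO Vehicle (median 1.103) and 2.22 to 4.15 in LKO Beta3 (median 3.02). Treated and vehicle mice did not overlap in either genotype. Its change was 1.73 ± 0.34 (SE, limma adjusted p = 0.000328) in LWT and 1.81 ± 0.34 (adjusted p = 0.000217) in LKO. The 2 effects differed by 0.08, with a 95% interval from -0.92 to 1.07.

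Ccl9 in LWT mice had vehicle values of 3.75 to 4.24 (median 4.00) and treated values of 3.23 to 3.89 (median 3.45). In LKO mice these were 4.07 to 4.33 (median 4.21) and 3.11 to 3.89 (median 3.49). The LWT groups overlapped and the LKO groups did not. Its change was -0.48 ± 0.12 (SE, limma adjusted p = 0.00236) in LWT and -0.69 ± 0.12 (adjusted p = 8.19e-05) in LKO. The probes lie on mm9 at chr11:83401997-83402056 for Ccl6 and chr11:83388223-83388282 for Ccl9.

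Ccl4, made by activated macrophages and T cells, was called higher in LKO by 1.07 ± 0.42 (SE, limma adjusted p = 0.0465), all 6 treated mice lying above the vehicle mean. This call was lost under 7 of 10 other processings, with adjusted p up to 0.101, and its size was 0.28 after normexp correction. Ccl5 of the same group was not called (0.16 in LWT, -0.10 in LKO).

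Of the remaining CC ligands, Ccl24, an eosinophil attractant made by liver macrophages, fell in LKO from 0.26 to 0.93 in vehicle mice to -0.30 to 0.38 in treated mice. The change was -0.45 ± 0.13 (SE, limma adjusted p = 0.0106), and -0.31 (adjusted p = 0.076) in LWT. Ccl1, Ccl19, Ccl21a, Ccl25 and Ccl27a were not called for treatment, with changes between -0.84 and 0.39. Ccl21a and Ccl27a belong to near-identical gene copies, so which copy the probes report is uncertain.

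**Figure D4:**
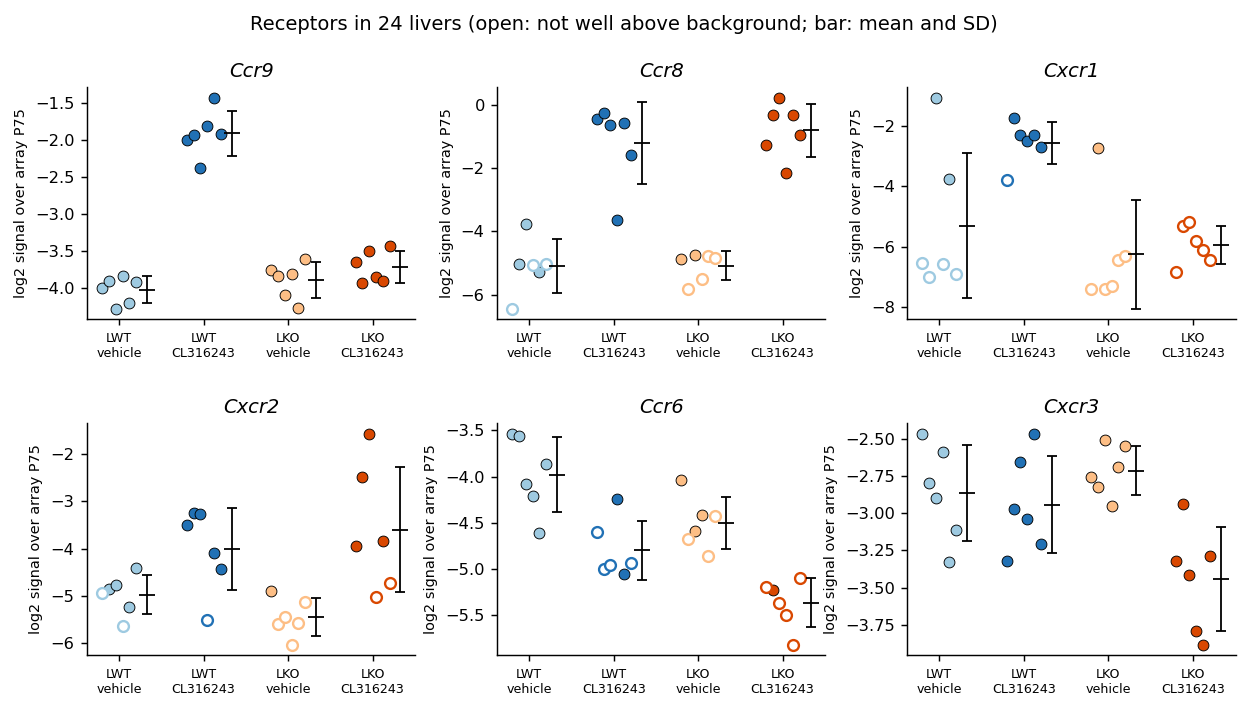
Signal of 6 receptors in each of the 24 livers, as log2 over the array's 75th percentile; open points were not well above background, bars are mean and SD, n = 6 per group. Ccr9 in LWT Beta3, from -2.38 to -1.43, stands apart from the other 3 groups, which lie between -4.28 and -3.44.

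Ccr9, the Ccl25 receptor that homes lymphocytes to the gut, was the member whose response differed by genotype. It ran from -4.28 to -3.84 in LWT Vehicle (median -3.96), -2.38 to -1.43 in LWT Beta3 (median -1.93), -4.28 to -3.62 in LKO Vehicle (median -3.82) and -3.93 to -3.44 in LKO Beta3 (median -3.76). All 24 arrays were well above background, and the treated LWT mice overlapped with no other group. The change was 2.11 ± 0.14 (SE, limma adjusted p = 1.41e-10) in LWT, a 4.33-fold rise, and 0.18 ± 0.14 (95% interval -0.10 to 0.46, adjusted p = 0.301) in LKO. The effects differed by -1.93 ± 0.19 (limma adjusted p = 9e-07). Within single slides, with 2 mice per group, that difference ran from -2.15 to -1.54 (adjusted p 0.0938 to 0.11), and over the other processings from -1.98 to -1.06, with the LWT change from 1.12 to 2.11.

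The Ccr9 probe lies at chr9:123690334-123690393 (mm9). A second probe on another transcript was well above background on no array. Cxcr6 lies close by on the same chromosome, at chr9:123720719-123720778, and its LWT change was -0.08 (limma adjusted p = 0.754). Ccl25, the ligand of Ccr9, was not called for treatment, at -0.01 in LWT (95% interval -0.18 to 0.16) and 0.02 in LKO (95% interval -0.15 to 0.20). These values are of its brightest probe. Another to the same transcript changed by 0.47 ± 0.30 (SE) in LWT and 0.19 ± 0.30 in LKO. A probe to a noncoding transcript changed by 0.27 and -0.02. The Ccr9 promoter is printed because this is the genotype-dependent member.
Ccr9, chr9:123766961-123767210, plus strand: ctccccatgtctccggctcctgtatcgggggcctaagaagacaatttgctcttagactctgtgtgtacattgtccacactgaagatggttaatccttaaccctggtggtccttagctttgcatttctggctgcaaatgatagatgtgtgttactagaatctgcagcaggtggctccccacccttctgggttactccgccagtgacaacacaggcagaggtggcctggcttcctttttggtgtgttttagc
It holds no match to the NF-kB-like motif, the ISRE-like motif or the cAMP response element TGACGTCA. The cAMP element occurs in 1.55% of all promoter entries and in none of the 37 matched members.

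Ccr8, the Ccl1 receptor of regulatory and type 2 helper T cells, showed the largest rise of the family in both genotypes with the processing used here. In LWT it went from -6.45 to -3.77 (median -5.04) to -3.65 to -0.23 (median -0.60), and in LKO from -5.81 to -4.73 (median -4.85) to -2.15 to 0.24 (median -0.64). Neither pair of groups overlapped. The change was 3.92 ± 0.50 (SE, limma adjusted p = 2.72e-06) in LWT and 4.30 ± 0.50 (adjusted p = 1.28e-06) in LKO. In the vehicle groups 3 of 6 LWT and 2 of 6 LKO arrays were well above background, so the size depends on how the background is handled, and it was as low as 2.003 and 2.28 under other processings. Ccr8 passed the detection filter only through the treated groups, the groups called higher. The first rank in LKO was not kept. Ccr8 changed there by 2.28 after normexp correction and 2.78 with the authors' deposited table, less than Cxcl1 (3.11 and 3.10). The lowest treated LWT value of Ccr8, -3.65, was again replicate 4, which was also lowest in its group for Cxcl1, Ccl6, Cxcl14 and Cxcr2. Ccl1, the ligand of Ccr8, was not called (0.34 in LWT, 0.01 in LKO). Cx3cr1, the fractalkine receptor, changed by -1.09 in LWT (adjusted p = 0.0962) and -0.78 in LKO (adjusted p = 0.23).

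Among the lymphocyte receptors, Ccr6, Ccr7, Cxcr3 and Cxcr6 were called lower in LWT, LKO or both. Ccr8 in both genotypes and Ccr9 in LWT rose, as given above. Ccr6, the Ccl20 receptor of B cells and Th17 cells, went from -4.61 to -3.54 to -5.06 to -4.25 in LWT, and from -4.86 to -4.04 to -5.82 to -5.10 in LKO. The change was -0.82 ± 0.18 (SE, limma adjusted p = 0.000958) in LWT and -0.87 ± 0.18 (adjusted p = 0.000612) in LKO. Ccr6 passed the detection filter only through LWT Vehicle, its highest group, so filter and LWT call rest on the same high values. With no filter on dim probes it was still called in LWT (limma adjusted p = 0.00228). It was well above background on 6 of 6 LWT Vehicle arrays but on 2 of 6, 3 of 6 and 1 of 6 in LWT Beta3, LKO Vehicle and LKO Beta3, and other processings gave -0.88 to -0.25 in LWT and -0.96 to -0.18 in LKO, the call being lost with the authors' deposited table in LKO (-0.23, adjusted p = 0.0547). Ccr7, which guides T cells and dendritic cells to lymph nodes, was called lower in LWT, from -2.84 to -2.20 to -3.60 to -2.23. That change was -0.54 ± 0.20 (limma adjusted p = 0.0409), and it missed the threshold under 5 of 10 other processings, with adjusted p up to 0.0837. In LKO it was -0.48 (adjusted p = 0.0663).

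Cxcr3, the receptor for Cxcl9 to Cxcl11 on activated T cells and NK cells, fell in LKO from a range of -2.95 to -2.51 to one of -3.88 to -2.94. The change was -0.73 ± 0.17 (SE, limma adjusted p = 0.00151) in LKO and -0.08 (adjusted p = 0.751) in LWT. The LKO change was -0.33 after normexp correction and -0.47 with the authors' deposited table, both called. Cxcr6, the Cxcl16 receptor of liver-resident T and NKT cells, fell in LKO by 0.65 ± 0.17 (limma adjusted p = 0.00377) and its LWT change was -0.08. A second Cxcr6 probe changed by -0.26 in LWT and -0.66 in LKO, a difference in effect of -0.39. For the LKO change, other processings gave -0.66 to -0.40. The genotype difference in effect was -0.65 for Cxcr3 (adjusted p = 0.126) and -0.57 for Cxcr6 (adjusted p = 0.189), so neither passed. Ccr2, the Ccl2 receptor of monocytes, was not called for treatment (-0.29 in LWT, 0.27 in LKO).

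Lymphocyte markers were read beside these receptors, against 38.3% of all genes called in LWT (19.4% lower) and 40.3% in LKO (19.4% lower). Of 10 tested T cell markers, 1 was lower in LWT, and 1 higher and 3 lower in LKO. Of 6 tested B cell markers, 1 was higher and 3 lower in LWT and 2 lower in LKO, among them Ms4a1 (CD20), at -1.45 and -1.67. The median change of the 6 was -0.59 in LWT and -0.58 in LKO, with 1 and 2 of them above 0. None of 6 tested NK cell markers was called, and of 9 dendritic cell markers 1 rose and 2 fell in LWT, and 1 rose and 1 fell in LKO. The dendritic cell list holds Ccr7, so 1 of the 2 that fell in LWT is the receptor given above. The part of lymphocytes and dendritic cells in the receptor values was not tested.

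Genotype alone separated few members. Under vehicle, LKO against LWT called 0 of 33 members in limma, beside 1.18% of all genes, 0.398% higher and 0.778% lower. Ccl25, Ccr6, Cxcl14 and Ccr2 had an unadjusted p under 0.05 in limma, which is not a call. The share of all genes under that limit was not counted. Ccl25 was the 1 member whose groups did not overlap, beside 1.8% of all genes. With the authors' deposited values 1 was called, and likewise with only the 2 groups compared in the fit. Under CL316243, LKO against LWT called 6 of 33, 1 higher and 5 lower, beside 15.9% of all genes, 7.74% higher and 8.17% lower. The groups did not overlap for 3 members, Ccr9, Cxcr1 and Ccr6, beside 6.57% of all genes. This comparison shares its treated mice with the treatment comparisons. Cxcr1 passed the detection filter only through LWT Beta3, the higher group here.

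Under CL316243 Cxcl14 was higher in LKO by 2.39 ± 0.43 (SE, limma adjusted p = 0.000395), all 6 LKO mice lying above the LWT mean. Under vehicle its difference was 1.06 (adjusted p = 0.466). Ccr9 was lower in LKO by 1.80 ± 0.14 under treatment (-1.80, limma adjusted p = 1.35e-09) and differed by 0.13 under vehicle. Cxcr1 was at least 4.45-fold lower in LKO (limma adjusted p = 0.00825), a bound set by the lowest signal well above background on each array; the measured means were -5.94 and -2.55. The bound holds for this processing: the log2 difference was -0.97 after normexp correction and -1.44 with the authors' deposited table, both called and both smaller than the bound.

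The other 3 calls were small. Ccr6 was lower by 0.57 (-0.57, limma adjusted p = 0.0344), Cxcr3 was at -0.50 (adjusted p = 0.0468), and Ccl25 was at -0.27 (adjusted p = 0.0283). Ccr6 lost its call under 3 of 10, Cxcr3 under 5 of 10 and Ccl25 under 4 of 10 other processings. Ccl25, which hepatocytes and gut epithelium make, showed nearly the same difference under vehicle (-0.31, adjusted p = 0.0921). With its probes averaged it was -0.22 (adjusted p = 0.259). The probes of Ccl25 disagreed: another to the same transcript, spanning chr8:4354202-4357650 (mm9), gave 0.09 under vehicle and -0.18 under CL316243, and one to a noncoding transcript gave 0.08 and -0.21.

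Other genes of the pathway were read from lists, against 38.3% of all genes called in LWT (18.9% higher) and 40.3% in LKO (20.9% higher). Of 19 tested NF-kB feedback and adhesion genes, 6 rose and 3 fell in LWT, and 10 rose and none fell in LKO. Bcl3, an atypical IκB protein, rose by 1.31 and 1.72, and the endothelial adhesion gene Vcam1 by 1.21 and 1.23. Nfkb2 rose in LKO by 1.04 and its effect differed from that in LWT by 0.99 (limma adjusted p = 0.00286). Of 15 listed upstream cytokines 5 were detected well enough to test, and 1 rose and 2 fell in LKO, 2 fell in LWT; Il33 rose by 1.13 in LKO.

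Of 19 tested receptor signalling genes, 3 rose and 1 fell in LWT, and 6 rose and 2 fell in LKO. Pik3r5, the adaptor of the leukocyte kinase PI3Kγ, rose by 1.09 and 1.03, and the kinase gene Ptk2b fell by 1.14 and 1.52. Of 11 tested chemokine-like and atypical receptor genes, 1 rose and 1 fell in LWT, and 3 rose and 1 fell in LKO. Ackr4, which scavenges Ccl19, Ccl21 and Ccl25, fell by 0.93 in LWT and 1.33 in LKO.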

How the data were processed

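The authors measured liver RNA on 1-colour Agilent arrays (200 ng, Cy3). Per the file headers, the deposited intensity is the background-subtracted signal of Agilent Feature Extraction 10.10.1.1. The authors' deposited log2 table was quantile normalized: it matched the log2 median signal so treated within 0.01 for 99.3% of values over 31367 probes. Probe coordinates are mm9 per the file headers; exon and UTR annotation was not used here.

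Signals were put on log2, outlier spots dropped, spots of a probe averaged and each array's 75th percentile over non-control spots subtracted. A probe was kept if 4 or more of the 6 arrays of any group had it well above background, and if measured in at least 3 mice of every group (32037 probes); the brightest kept probe stood for its gene, 21331 in all. limma 3.58.1 (R 4.3.3) fitted 1 mean per group over 24 arrays, with 5 contrasts and Benjamini-Hochberg adjustment within each. The fit was tested on simulated data. Promoters were searched with Python 3.11.15 on both strands.

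Groups are those of the labels' genotype and treatment. Named genes were Cxcl1, Cxcl10, Ccl2 and every member called in a comparison, and from other lists at most the 3 called genes with the largest change; others are given by range. Counts cover every member, but the values of 1 member are not reported here. Members and lists were chosen with earlier results of these data known. Alternatives were another background correction, 2 other normalizations, filters on dim probes, averaged probes, slide, row and replicate blocks, 2-group fits, a 1.5-fold limit, leaving out each mouse, and single slides. Replicate numbers did not pair the mice.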

Additional observations from a re-analysis of the deposited data

Results flagged for a closer look

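The effect of CL316243 on Ccr9 differed between the genotypes by -1.93 on the log2 scale (LKO minus LWT, limma interaction, adjusted p = 9e-07), with 6 of 6 treated LWT mice above the LWT vehicle mean and 4 of 6 treated LKO mice above theirs.

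Cxcr1 in LKO Vehicle replicate 2 was at -2.74, where the nearest of the other 5 mice was at -6.29. The gap was 0.763 of the range of the group, above Dixon's critical value for 6 samples. This was 1 of 76 groups of 6 mice examined, and chance flags about 1 group in 20.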

How the results depend on the processing

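Over other processings of the whole table, 305 of 336 values kept their direction and side of the threshold, 30 lost their call, 1 gained it and none reversed; leaving out each mouse kept 762 of 816, with 46 calls lost and 6 values reversed. Many of these fits could move a call but not a direction. Without missing values, the balanced blocks, the 2-group fits and dim-probe filters keeping the same probe leave the log2 change as it is. So does leaving out a mouse of a group outside the comparison. Within single slides, with 2 mice per group, 37 of 102 stayed on their side, 58 lost their call, 2 gained it and 5 reversed. The LKO against LWT count under vehicle was 1 with the authors' deposited table and 1 with 2 groups in the fit (reported 0). The same count under CL316243 was 3 with no filter on dim probes and 3 at 1.5-fold or more (reported 6). Within slide 1, with 2 mice per group, the LWT change reversed for Cxcl1 (-1.39) and Cxcl10 (0.16), and the LKO change for Cxcl10 (-0.71) and Ccl2 (-0.25); within slide 2 Ccl2 in LWT was -0.47. Leaving out single mice took Cxcl10 in LKO from -0.0932 to 0.32, and through -0.0463, and Ccl2 in LWT from -0.1221 to 0.28, through -0.0194, -0.015 and -0.0062. The cause was not tested. With the replicate block the 5 counts were 10, 12, 1, 0 and 6; it does not pair the mice, since same-numbered mice correlated above 0.1 in 1, 2, 0 and 3 of 6 pairs and 1, 2, 1 and 2 of 6 correlated best with their own number. Dim receptors (Ccr8, Ccr6, Cxcr1, Cxcr2) are limited by signal over background.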

Other observations

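Ccl27a, a skin and mucosal chemokine gene, fell into separate levels that crossed the groups. On its brightest probe 6 of the 24 mice lay between 0.86 and 1.59 and the other 18 between -2.96 and -0.73. The 6 were LWT Vehicle replicates 1 and 5, LWT Beta3 replicates 2 and 4, LKO Vehicle replicate 1 and LKO Beta3 replicate 4. A second probe, which overlaps the first, separated the same 6 mice (0.50 to 1.31) from the other 18 (-3.49 to -0.74). On another probe, at a separate site, the same 6 ran from -3.21 to -2.58, all well above background, against 2 of the 18. This was chosen after the values were seen, and near-identical gene copies make the member uncertain.

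Genes next to Ccr9 and Cxcr1 in RefSeq order were read after the values of both were known, taking the nearest 2 tested protein-coding genes on each side. Beside Ccr9, Fyco1 fell in both genotypes (-0.84 and -0.98), and Slc6a20a and Lztfl1 were not called for treatment. Lztfl1 was higher in LKO than in LWT under CL316243 by 0.35 (limma adjusted p = 0.0377), and Cxcr6 is described above. Beside Cxcr1, Rufy4 was well above background on all 12 LWT arrays and on none of the 12 LKO arrays. It was at least 2.02-fold lower in LKO under vehicle (limma adjusted p = 0.000213) and at least 10.2-fold lower under CL316243 (adjusted p = 4.2e-08), and it rose with treatment in LWT by 2.48 (adjusted p = 0.000137). These bounds are set as for Cxcr1 and hold for this processing. Rufy4 was not read under the other processings. On the other side of Cxcr1, Arpc2 was not called in any comparison, and Gpbar1, a bile acid receptor gene, rose in LKO by 1.51 (limma adjusted p = 0.0071) and changed by 1.07 in LWT (adjusted p = 0.0523).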
